A study of Mus musculus with 12 samples.

Results

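The genes described here are 44 markers of microglia, the resident macrophages of the brain, read in subcortical white matter of mice. They were taken as a list of gene symbols and not by their values. Each symbol was found among the 33864 loci of the deposited table, and where a symbol stood at more than 1 locus the locus with the highest mean was used. The list holds 10 homeostatic genes of resting microglia, 13 genes shared with other myeloid cells and 21 disease-associated genes.

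Each of 12 libraries came from 1 mouse, in 4 groups of 3. The first line compared Sox10-tTA;TRE-dnEGFR mutants, whose transgene encodes dominant-negative EGFR, the epidermal growth factor receptor, with TRE-dnEGFR littermates. Doxycycline was given to both groups between postnatal days 21 and 35, and tissue was taken on day 35. The second line compared Sox10-tTA;TRE-ErbB2V664E mutants, whose transgene encodes activated ErbB2, a related receptor, with TRE-ErbB2V664E littermates. Here doxycycline ran between days 21 and 30, and tissue was taken on day 30. The Sox10 promoter, which drives the transactivator tTA, is active in the oligodendrocyte lineage and not in microglia. The sources used here do not say if doxycycline switched the transgenes on or off. No group carried tTA alone, so an effect of tTA cannot be told apart from that of the transgene, and the lines differ in age, treatment length and transgene together.

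Microglia depend on signalling through the receptor Csf1r and, at rest, express sensors such as P2ry12, Cx3cr1 and Tmem119. When they meet damaged myelin, dying cells or amyloid, signalling through Trem2 and its adaptor Tyrobp can move them to a state in which the homeostatic genes go down and genes such as Cst7, Itgax, Clec7a and Lpl go up. In white matter, cells of this kind are also known during development and in demyelination. Several genes on disease-associated lists are not confined to microglia. Lpl, Csf1, Igf1, Fabp5, Spp1, Axl, Cd63 and the lysosomal proteases Ctsb and Ctsd are also made by other brain cells.

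Markers of white matter were abundant, with 8 oligodendrocyte genes at a sum of 781 to 1904 FPKM over the 12 libraries (fragments per kilobase, a level corrected for transcript length and library depth). Libraries held an estimated 16600000 to 24700000 fragments, the lowest in ErbB2V664E mutant 1, so that 1 FPKM in a transcript of 2 kb stood for 33.2 to 49.5 fragments. The mouse Egfr locus read 2.64 to 3.32 FPKM in dnEGFR controls and 2.77 to 3.08 in dnEGFR mutants. The Erbb2 locus read 0.772 to 0.970 FPKM in ErbB2V664E controls and 0.833 to 0.894 in ErbB2V664E mutants, so neither locus shows the transgenes or checks the labels. Among the ErbB2V664E mutants, mutant 1 stood apart from mutants 2 and 3 in the microglial genes, and the results that rest on it are given with and without it. Neuronal markers, which are not expected of white matter alone, were also high, at 397 to 669 FPKM summed over 8 genes. The choroid plexus markers were uneven in every group, from 12.1 to 713 FPKM summed over 6 genes.

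The homeostatic genes and the markers shared with other myeloid cells read above 0 in every library. Some were near 0 in single libraries, with lowest values of 0.0244 FPKM for Mpeg1, 0.0403 for P2ry13 and 0.0963 for Gpr34. The 10 homeostatic genes summed to between 30.8 and 73.7 FPKM. Per transcript length, Csf1r had the highest mean of this group at 15.5 FPKM, before Cx3cr1 at 8.50, P2ry12 at 7.61 and Tmem119 at 6.00, while Siglech at 1.65 FPKM was the lowest. The ranges of Cx3cr1, P2ry12 and Tmem119 over the libraries overlapped, so their order is not set beyond the spread. Among the shared genes the lysosomal protease Ctss was the most abundant, with a mean of 31.1 FPKM and a range of 22.5 to 38.0. Cd52 and Cybb were the lowest at 0.523 and 0.0699 FPKM. Markers of infiltrating monocytes and neutrophils were close to absent. Each of the 10, Ccr2 and S100a8 among them, stayed below 1 FPKM in every library. Their sum ranged from 0.292 to 0.785 FPKM in ErbB2V664E controls, 0.508 to 1.01 in ErbB2V664E mutants, 0.453 to 0.938 in dnEGFR controls and 0.614 to 1.19 in dnEGFR mutants, and 8 of the 10 were listed at 0 in some libraries. Of 10 markers of border macrophages, 8 stayed below 1 FPKM, among them Mrc1 at 0.144 to 0.481 FPKM. Of 9 lymphocyte markers found, 7 stayed below 1 FPKM, and Cd3e, Cd3d, Cd8a, Nkg7 and Gzmb were among those listed at 0 in some libraries. The other 2 were Cd4 at 3.93 to 10.02 FPKM and Trbc2, a T cell receptor constant region, at 1.97 to 6.196.

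The disease-associated genes ranged from abundant ones to ones near silence, with Ccl6 at a mean of 0.760, Lpl at 2.62 and Axl at 7.08 FPKM among those between. Testing required 1 FPKM in 3 or more of the 12 libraries, and 11 of the 21 passed, against 10 of 10 homeostatic and 11 of 13 shared genes, 32 of the 44 in all. The tested ones include the most abundant genes of the whole set, Ctsb with a mean of 66.2 FPKM, Ctsd with 30.5 and Ank with 25.6. The untested 10 were Cst7, Itgax, Clec7a, Gpnmb, Ccl3, Ccl4, Lgals3, Igf1, Cxcl16 and Lilrb4a, with means from 0.0574 FPKM for Itgax to 0.585 for Igf1. Cst7, an inhibitor of lysosomal proteases, was listed at 0 in 5 of 12 libraries, and its values corresponded to an estimated 0 to 3.0 fragments a library. Ccl4, a chemokine, and Lilrb4a, an inhibitory receptor, were each listed at 0 in 4 libraries.

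**Figure D1:**
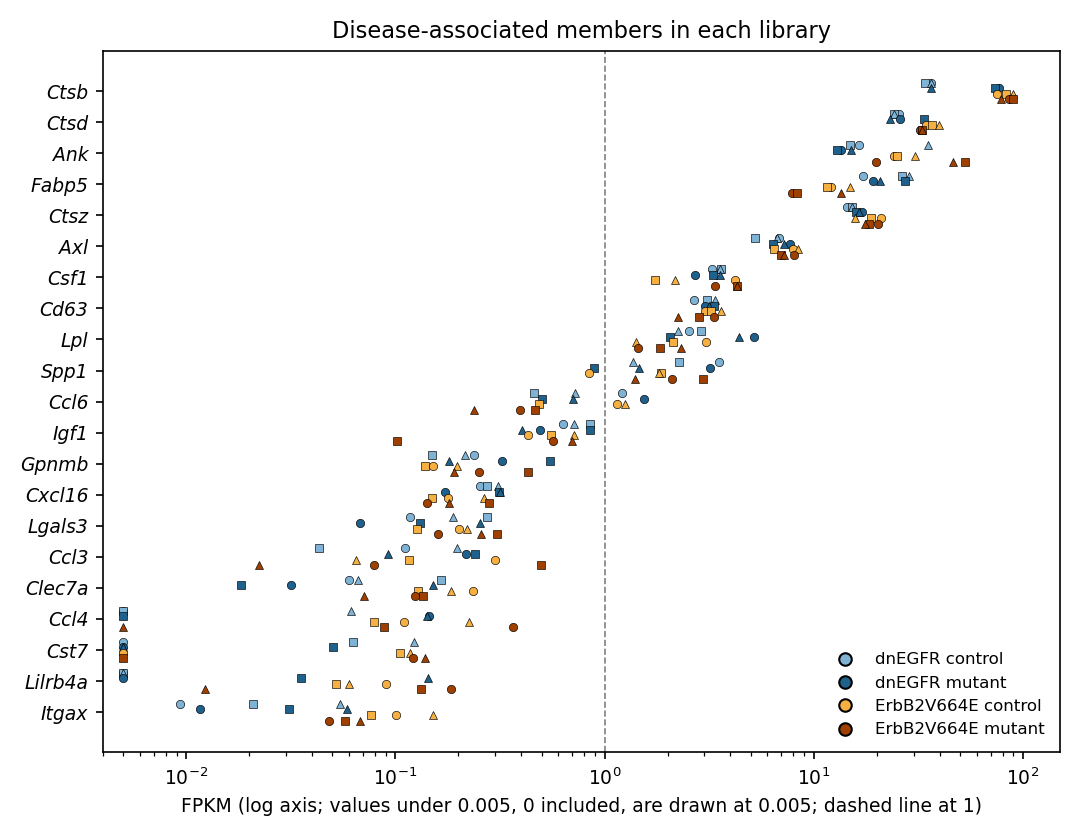
FPKM on a log axis of the 21 disease-associated genes, 1 point per library, coloured by group, with circles, squares and triangles for replicates 1, 2 and 3. Ctsb, Ctsd and Ank lie between 12.9 and 89.9 FPKM, while Cst7, Itgax and Clec7a stay at or below 0.234 FPKM in every library.

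In the ErbB2V664E line, the homeostatic genes read lower in mutants than in littermate controls, most of all in mutants 2 and 3, but no member passed the test after adjustment over all loci. Of the 10, 8 had a negative difference, with a median of -0.53 in log2(FPKM + 1) between group means, against a median of 0.00 over all 13803 tested loci. Without mutant 1 that median was -0.80. The test was limma on log2(FPKM + 1), with p-values adjusted by the Benjamini-Hochberg method over all tested loci and a threshold of 0.05. It called 0 of 32 tested members in this comparison, and 38 loci in all (0.275% of those tested, 19 higher and 19 lower), or 7 with litter as a replicate block. In bulk tissue, fewer microglia and less RNA per cell cannot be told apart.

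Cx3cr1, the receptor for the neuronal chemokine fractalkine, read 9.49, 8.49 and 10.3 FPKM in controls 1 to 3 and 8.76, 5.92 and 4.71 in mutants 1 to 3. Tmem119, a membrane protein typical of microglia, read 6.94, 6.46 and 9.95 FPKM in controls and 6.49, 3.25 and 2.79 in mutants. Csf1r, the receptor on which microglia depend, read 19.8, 16.8 and 22.1 FPKM in controls and 16.8, 10.9 and 11.8 in mutants. In each of these genes mutants 2 and 3 lay below every control, while mutant 1 lay within the control range, so the groups overlapped. Their differences on the log2 scale were -0.52 ± 0.18 (SE) for Cx3cr1, -0.81 ± 0.25 for Tmem119 and -0.55 ± 0.18 for Csf1r. Adjusted p-values from limma were 0.26, 0.212 and 0.243. P2ry12, the purinergic receptor that senses nucleotides from injured cells, read 6.57, 6.66 and 8.74 FPKM in controls and 10.6, 3.23 and 3.81 in mutants. Mutant 1 was thus the highest and mutants 2 and 3 the lowest of the line, and the difference was -0.42 ± 0.39 (limma adjusted p = 0.721). It was -0.87 ± 0.31 without mutant 1 (limma adjusted p = 0.201), -0.15 without mutant 2 and -0.24 without mutant 3.

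**Figure D2:**
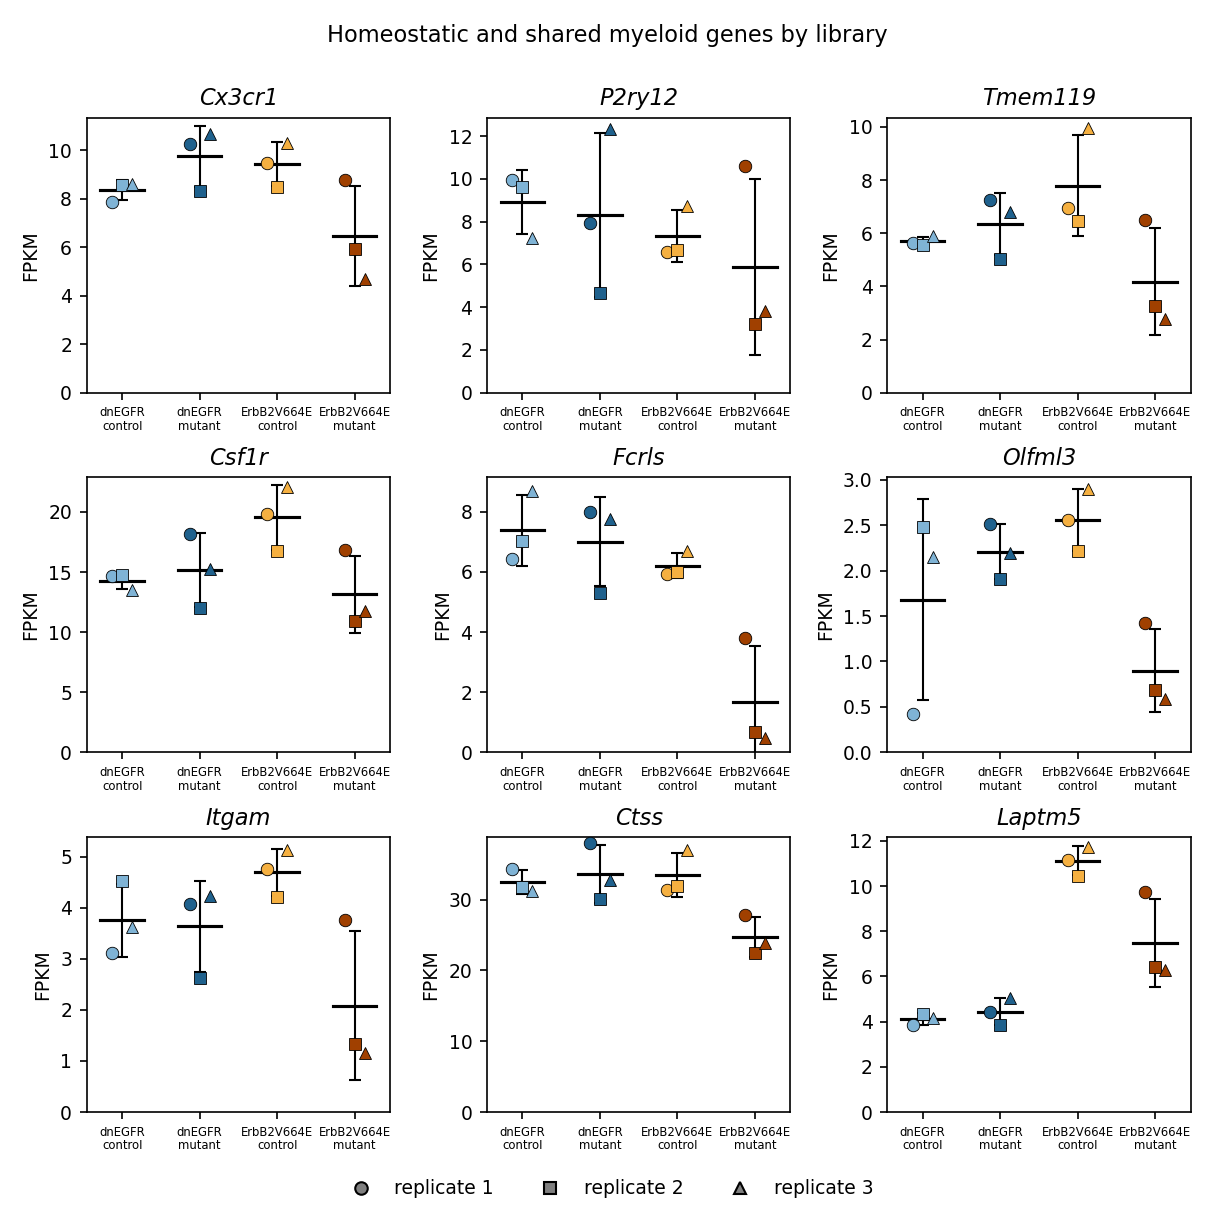
FPKM of 6 homeostatic genes (Cx3cr1, P2ry12, Tmem119, Csf1r, Fcrls, Olfml3) and 3 shared myeloid genes (Itgam, Ctss, Laptm5) in the 4 groups, with symbols for replicates, a bar at the group mean and whiskers of 1 SD (n = 3). In the ErbB2V664E line mutants 2 and 3 lie below all 3 controls in each panel, and mutant 1 lies above them or level with controls in P2ry12, Cx3cr1, Tmem119 and Csf1r.

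The groups did not overlap for Fcrls, Olfml3 and P2ry13. Fcrls, an Fc receptor-like protein of mouse microglia, read 5.92, 6.01 and 6.70 FPKM in controls and 3.81, 0.690 and 0.485 in mutants. Its difference of -1.65 ± 0.37 had the lowest adjusted p of all members, 0.12 by limma. Olfml3, a secreted olfactomedin-like protein, read 2.55, 2.22 and 2.90 FPKM in controls and 1.43, 0.681 and 0.588 in mutants (difference -0.93 ± 0.30, limma adjusted p = 0.238). P2ry13, another purinergic receptor, read 3.95, 3.07 and 3.44 FPKM in controls and 2.76, 1.54 and 1.25 in mutants. For Fcrls the lowest mutant stood at an estimated 24.1 fragments. P2ry12 and P2ry13 overlap the gene Med12l on the opposite strand, and the library protocol names no step that would keep their reads apart. The same limit holds for other members, among them Cx3cr1 (Ttc21a and Wdr48), Csf1r (Hmgxb3), Ctsz (Nelfcd) and Ank (Otulin). The other 3 homeostatic genes overlapped between groups. Siglech, a lectin of the sialic acid-binding family, ranged from 1.34 to 2.30 FPKM in controls and from 0.928 to 1.70 in mutants. Gpr34, a lysophosphatidylserine receptor, and Selplg, the ligand of P-selectin, were uneven within groups. Gpr34 overlaps the gene Cask on the opposite strand, which read 8.92, 4.48 and 8.76 FPKM in ErbB2V664E controls 1 to 3. Whether reads of Gpr34 and Cask were mixed was not tested. Gpr34 read 0.0963, 4.72 and 0.165 FPKM in controls, and Selplg 7.81, 3.797 and 0.804. They were the only homeostatic genes with a positive difference in this line, 0.46 for Gpr34 and 0.27 for Selplg, or 0.09 and 0.0071 without mutant 1.

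The shared myeloid genes followed with a median difference of -0.33 over the 11 tested, 9 of them negative. Without mutant 1 the median was -0.45. Itgam, the integrin chain known as CD11b, read 4.76, 4.21 and 5.12 FPKM in controls and 3.77, 1.33 and 1.15 in mutants (difference -0.98 ± 0.28, limma adjusted p = 0.188). Ctss, which cleaves proteins in lysosomes and outside the cell, read 31.4, 32.0 and 37.0 FPKM in controls and 27.9, 22.5 and 23.8 in mutants (difference -0.42 ± 0.12, limma adjusted p = 0.186). Laptm5, a lysosomal membrane protein of haematopoietic cells, read 11.2, 10.4 and 11.7 FPKM in controls and 9.73, 6.44 and 6.27 in mutants (difference -0.54 ± 0.15, limma adjusted p = 0.18). In these genes all 3 mutants lay below all 3 controls. The same held for Fcer1g, the shared signalling chain of Fc receptors, at 5.70, 6.16 and 6.10 FPKM in controls and 5.27, 4.59 and 3.96 in mutants. Trem2, the lipid-sensing receptor, read 1.43, 1.05 and 1.63 FPKM in controls and 1.08, 0.756 and 0.698 in mutants. Its adaptor Tyrobp read 5.86, 5.02 and 6.35 FPKM in controls and 6.27, 4.50 and 3.83 in mutants. For both genes mutants 2 and 3 lay below every control and mutant 1 did not. The differences were -0.36 ± 0.14 for Trem2 (limma adjusted p = 0.339) and -0.22 ± 0.20 for Tyrobp (limma adjusted p = 0.727). Without mutant 1 the Tyrobp difference was -0.38 ± 0.20 (limma adjusted p = 0.412).

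Aif1, the calcium-binding protein Iba1 used to stain microglia, was read from a locus that also holds Lst1. It stood at 0.521, 0.358 and 0.920 FPKM in controls and 0.483, 0.366 and 0.357 in mutants, and the groups overlapped. Ly86, a partner of a Toll-like receptor homologue, had a difference of -0.75 ± 0.22 (limma adjusted p = 0.202). The phagocyte genes Cd68, a lysosomal glycoprotein, and Lyz2, lysozyme, had positive differences of 0.16 ± 0.21 and 0.30 ± 0.15, or 0.30 for Cd68 without mutant 1. Cybb, a subunit of the phagocyte oxidase, was too low to test, and its mutant values of 0.0944 to 0.114 FPKM lay above its control values of 0.0301 to 0.0450.

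Fcrls, Itgam and Laptm5 were the 3 non-overlapping genes with a promoter in the RefSeq table that were called once mutant 1 was left out, and their promoters are shown for that reason. RefSeq promoters (build GRCm38.p6) were found for 32 of the 44 members, 34 promoters in all, each of 250 bases before and 50 bases after the start of transcription. The letters GAGGAA, the core of the site bound by the myeloid factor that Spi1 encodes, were sought on both strands. The 250 bases before the start are printed 5′ to 3′ along the gene, with capitals for GAGGAA or its reverse complement TTCCTC.
Fcrls (chr3:87263525-87263774, minus strand): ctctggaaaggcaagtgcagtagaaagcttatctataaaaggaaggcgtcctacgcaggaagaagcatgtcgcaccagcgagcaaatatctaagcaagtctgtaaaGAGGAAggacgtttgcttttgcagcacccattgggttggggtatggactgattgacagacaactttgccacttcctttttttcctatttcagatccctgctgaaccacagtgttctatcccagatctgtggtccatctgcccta
Itgam (chr7:128062390-128062639, plus strand): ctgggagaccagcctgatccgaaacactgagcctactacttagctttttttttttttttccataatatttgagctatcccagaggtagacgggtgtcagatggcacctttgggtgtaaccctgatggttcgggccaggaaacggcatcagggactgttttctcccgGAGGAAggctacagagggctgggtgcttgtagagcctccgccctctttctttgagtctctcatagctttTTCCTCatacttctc
Laptm5 (chr4:130913066-130913315, plus strand): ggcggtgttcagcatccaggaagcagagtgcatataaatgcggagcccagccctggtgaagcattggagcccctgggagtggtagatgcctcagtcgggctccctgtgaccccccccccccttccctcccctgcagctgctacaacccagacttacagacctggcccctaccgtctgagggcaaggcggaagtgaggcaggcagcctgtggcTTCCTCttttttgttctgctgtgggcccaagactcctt
The first match began 144 bases before the start in Fcrls, 84 in Itgam and 38 in Laptm5. Cx3cr1, also called without mutant 1 but with overlapping groups, had 0 matches in its 250 bases. P2ry12, Cst7 and Itgax had 0 as well, and Ctss and Clec7a had 1. Over the whole 300 bases of each promoter, GAGGAA was present in 18 of 34 member promoters (52.9%) and in 28.3% of all 32851 promoters of the table. By group it was present in 3 of 6 homeostatic, 7 of 11 shared myeloid and 8 of 17 disease-associated promoters. The longer form GAGGAAGT, which contains the core, was present in 5.88% of member promoters and 3.2% of all. The element TCACGTGA of lysosomal gene promoters was present in 5.88% and 0.974%. These matches describe letters and not bound sites.

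Counted over the 32 tested members of the ErbB2V664E line, 10 were lower and 1 was higher at an unadjusted limma p under 0.05. The lower ones were Cx3cr1, Tmem119, Csf1r, Fcrls and Olfml3 among the homeostatic genes and Itgam, Trem2, Ctss, Laptm5 and Ly86 among the shared genes. They made up 31.2% of the tested members, beside 6.24% of all tested loci that were lower and 5.9% that were higher by the same limit. The lower share was 62.5% of 8 oligodendrocyte, 42.9% of 7 astrocyte and 100% of 5 erythroid genes, with median differences of -0.77, -0.56 and -1.57. For 6 oligodendrocyte precursor, 8 neuronal and 7 endothelial genes it was 16.7%, 12.5% and 0%, with medians of -0.19, 0.14 and 0.10. Among members whose groups did not overlap, 9 were lower (28.1%) and 0 higher, beside 8.96% of all loci lower and 9.28% higher. Of these 9, 3 were homeostatic, 4 shared and 2 disease-associated. Ccl6, one of those 2, passed the filter with only 4 libraries at 1 FPKM.

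Without mutant 1 the test called 6 members, all lower, and 262 loci (1.9%). These were Fcrls (-2.18 ± 0.17, adjusted p = 0.00088), Itgam (-1.34 ± 0.18, adjusted p = 0.0103), Laptm5 (-0.72 ± 0.11, adjusted p = 0.0162), Tmem119 (-1.11 ± 0.18, adjusted p = 0.0237), Cx3cr1 (-0.73 ± 0.13, adjusted p = 0.0341) and Ly86 (-0.98 ± 0.20, adjusted p = 0.0435). At an unadjusted p under 0.05, 13 members were then lower, beside 7.85% of all loci. By the same limit 3 of the 32 tested members were higher, 1 shared and 2 disease-associated. The share of all loci that were higher in this fit was not counted, so nothing is read from these 3. With mutant 1 left in, none of the 6 was called, so whether a member was called rested on that library. Mutant 1 was picked out after its values in the microglial genes were seen, so the calls without it are no separate support. For Fcrls the standard error was 0.37 with it and 0.17 without it.

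Taken library by library, the homeostatic genes of mutant 1 were near the control level and those of mutants 2 and 3 were not. Their median distance from the mean of the line's controls was -0.15, -0.80 and -0.82 in log2(FPKM + 1) for mutants 1 to 3, while the controls lay between -0.13 and 0.13. The shared genes gave -0.16, -0.42 and -0.48. The disease-associated genes gave 0.01, -0.10 and -0.06, beside -0.08, -0.02 and 0.12 in controls 1 to 3, so mutant 2 lay just below the lowest control. In litter pairs, each mutant less its own littermate, the homeostatic medians were -0.16, -0.75 and -0.98. Markers of other cells also differed between these libraries. The 5 erythroid genes summed to 118, 32.5 and 22.1 FPKM in mutants 1 to 3 and to 95.5 to 214 in controls, and none was at 0. The 8 oligodendrocyte genes summed to 1245, 781 and 993 FPKM in mutants and to 1256 to 1904 in controls. The 8 astrocyte genes summed to 205, 210.0 and 241 FPKM in mutants 1 to 3 and to 278 to 430 in controls, so here mutant 1 was the lowest. The 8 neuronal genes summed to 602, 657 and 643 FPKM in mutants and to 559 to 631 in controls. The part of erythroid RNA or of the tissue's cell makeup in the microglial values was not tested. Border macrophage markers summed to 2.78 to 4.29 FPKM in mutants and 3.34 to 4.56 in controls.

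**Figure D3:**
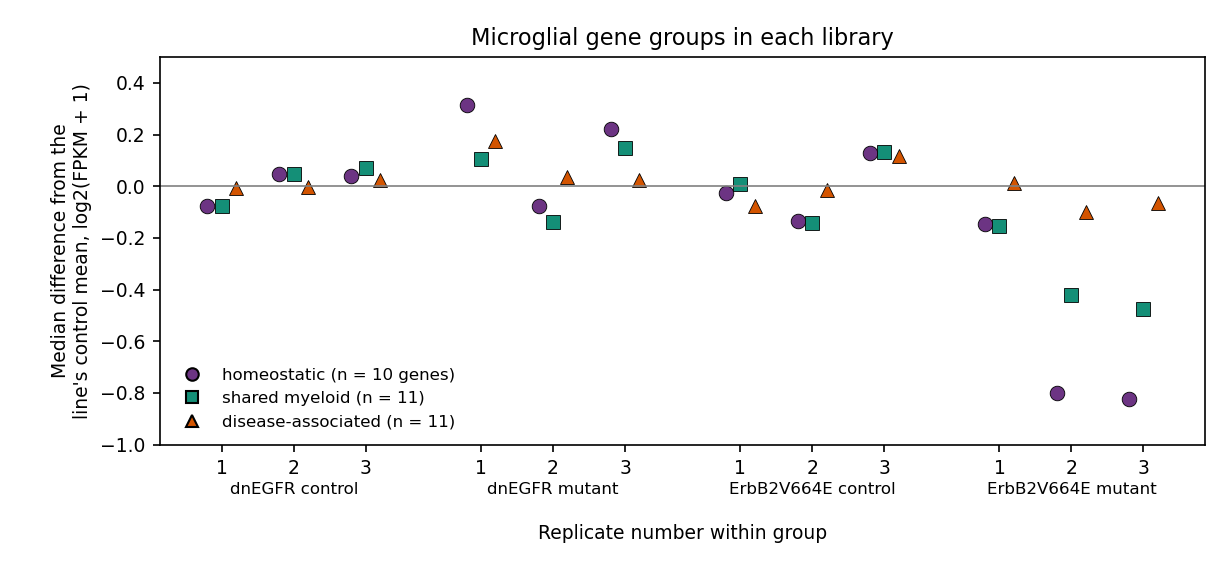
Median difference in log2(FPKM + 1) of each library from the mean of its line's controls, for the tested homeostatic (10), shared myeloid (11) and disease-associated genes (11), by group and replicate. ErbB2V664E mutants 2 and 3 stand at -0.80 and -0.82 for the homeostatic genes, and the disease-associated medians of the same line lie between -0.10 and 0.12.

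In ErbB2V664E mutants 2 and 3, where the homeostatic genes read lowest, the defining disease-associated genes Itgax, Clec7a and Cst7 stayed at or below 0.139 FPKM, and in no library did one exceed 0.234. Itgax, the integrin chain CD11c, read 0.101, 0.0761 and 0.152 FPKM in controls and 0.0484, 0.0576 and 0.0681 in mutants. Clec7a, a receptor for fungal glucans, read 0.234, 0.129 and 0.185 FPKM in controls and 0.124, 0.136 and 0.0706 in mutants. Cst7 read 0, 0.106 and 0.117 FPKM in controls and 0.122, 0 and 0.139 in mutants. These 3 genes together never passed 0.455 FPKM in any of the 12 libraries, between 0.0590% and 0.903% of the homeostatic sum of the same library. For Itgax all 3 mutants lay below all 3 controls, at levels too low for the test, and for Clec7a and Cst7 the groups overlapped. Lpl, lipoprotein lipase, was well above that level at 3.05, 2.13 and 1.41 FPKM in controls and 1.44, 1.84 and 2.31 in mutants. Its groups overlapped, with a difference of -0.14 ± 0.26 (limma adjusted p = 0.885). The other untested disease-associated genes overlapped between groups in this line. Lgals3 read 0.202, 0.126 and 0.220 FPKM in controls and 0.159, 0.307 and 0.256 in mutants. Gpnmb read 0.151, 0.138 and 0.197 FPKM in controls and 0.251, 0.432 and 0.191 in mutants. Their averages were higher in mutants, as were those of Ccl3, Ccl4, Cxcl16 and Lilrb4a, while Igf1 averaged lower.

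Over the 11 tested disease-associated genes of this line the median difference was -0.02, with 5 positive and 6 negative. Csf1, a ligand of Csf1r, was the only member higher at an unadjusted p under 0.05. It read 4.21, 1.75 and 2.17 FPKM in controls and 3.36, 4.28 and 4.30 in mutants, so that control 1 lay among the mutants (difference 0.47 ± 0.20, limma adjusted p = 0.389, and 0.75 ± 0.13 without control 1, adjusted p = 0.0935). Ctsd, an aspartic protease of lysosomes, read 34.5, 36.9 and 39.9 FPKM in controls and 32.1, 32.8 and 33.0 in mutants, from a locus that also holds Ifitm10. Ccl6, a chemokine of myeloid cells, read 1.15, 0.487 and 1.25 FPKM in controls and 0.393, 0.464 and 0.238 in mutants. The groups of both genes did not overlap, and the limma adjusted p-values were 0.625 and 0.429. Ctsb, a cysteine protease, ranged from 75.4 to 89.3 FPKM in controls and from 78.3 to 89.9 in mutants. Ank, a transporter of pyrophosphate, read 24.2, 25.1 and 30.6 FPKM in controls and 19.9, 53.1 and 46.3 in mutants, with mutants 2 and 3 above every control (difference 0.45 ± 0.37, limma adjusted p = 0.681, and 0.88 ± 0.31 without mutant 1, adjusted p = 0.195). Axl, a receptor for apoptotic cells, Cd63, a tetraspanin of late endosomes, Fabp5, a fatty acid-binding protein, Spp1, the secreted protein osteopontin, and Ctsz, a lysosomal carboxypeptidase, overlapped between groups.

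In the dnEGFR line most homeostatic genes read slightly higher in mutants, with 8 of 10 differences positive, as were 7 of 11 shared and 7 of 11 disease-associated ones, 22 of 32 members in all. Limma called 0 of 32 members and 13 loci in all (0.0942%), or 3 with litter as a replicate block. The median difference was 0.11 for the homeostatic, 0.04 for the shared and 0.08 for the disease-associated genes, beside 0.01 over all loci. By library, mutants 1 and 3 lay above the controls' mean in 9 of 10 homeostatic genes and mutant 2 below it in 7 of 10. Their medians were 0.32, -0.08 and 0.22 for mutants 1 to 3. Border macrophage markers summed to 4.33, 1.86 and 2.35 FPKM in these mutants and 2.14 to 2.87 in controls.

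Cx3cr1 read 7.88, 8.59 and 8.63 FPKM in dnEGFR controls and 10.3, 8.31 and 10.7 in mutants (difference 0.19 ± 0.18). Tmem119 read 5.62, 5.55 and 5.90 FPKM in controls and 7.25, 5.02 and 6.79 in mutants (difference 0.12 ± 0.25). Csf1r read 14.6, 14.7 and 13.5 FPKM in controls and 18.2, 12.04 and 15.2 in mutants (difference 0.06 ± 0.18). In these genes mutant 2 was the lowest mutant, and the mutants spread more widely than the controls. P2ry12 read 9.93, 9.64 and 7.21 FPKM in controls and 7.96, 4.67 and 12.3 in mutants (difference -0.17 ± 0.39). Limma adjusted p-values of these members were at least 0.987. Fcrls, with 6.41, 7.03 and 8.69 FPKM in controls and 7.99, 5.30 and 7.75 in mutants, overlapped between groups, as did Itgam and Laptm5. Tyrobp read 6.41, 5.59 and 6.52 FPKM in controls and 7.17, 5.50 and 10.3 in mutants. Trem2 read 1.497, 1.22 and 1.63 FPKM in controls and 1.76, 1.17 and 1.60 in mutants, and Aif1 read 1.02, 1.75 and 2.16 in controls and 1.34, 1.39 and 1.64 in mutants. Their differences were 0.23 ± 0.20 for Tyrobp, 0.03 ± 0.14 for Trem2 and -0.08 ± 0.18 for Aif1, none larger than the spread between mice.

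Of the disease-associated genes, Lpl read 2.53, 2.90 and 2.23 FPKM in dnEGFR controls and 5.16, 2.06 and 4.37 in mutants. Mutants 1 and 3 exceeded every control and mutant 2 was below them all (difference 0.39 ± 0.26, limma adjusted p = 0.969). Itgax stayed between 0.00934 and 0.0586 FPKM and Clec7a between 0.0182 and 0.166 in this line. Cst7 read 0, 0.0627 and 0.123 FPKM in controls and 0, 0.0503 and 0 in mutants. The groups overlapped in each of the 3 genes.

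At an unadjusted limma p under 0.05, 1 member was higher and 1 lower in dnEGFR mutants, Ctsb and Mpeg1, beside 3.27% of all loci higher and 2.42% lower. Ctsb read 36.4, 34.1 and 36.3 FPKM in controls and 76.7, 73.7 and 36.2 in mutants (difference 0.71 ± 0.24, adjusted p = 0.73). Mutants 1 and 2 were above every control, and mutant 3 lay at the control level. Without mutant 3, Ctsb was called, at 1.06 ± 0.10 (limma adjusted p = 0.00244), among 36 loci (0.261%). Mutant 3 was picked out by its Ctsb value, so this call is no separate support. Ctsb overlaps the gene Fdft1 on the opposite strand, which ranged from 6.28 to 8.94 FPKM in this line. Mpeg1, a pore-forming protein of macrophages, read 6.14, 5.77 and 6.76 FPKM in controls and 0.0244, 5.12 and 1.91 in mutants (difference -1.45 ± 0.54, adjusted p = 0.799). It was the only tested member whose mutants all lay below the controls, beside 4.57% of all loci. Ctsz was the only member whose mutants all lay above, at 14.5, 15.3 and 15.3 FPKM in controls and 17.1, 15.96 and 16.5 in mutants, beside 5.58% of all loci (difference 0.13 ± 0.11, limma adjusted p = 0.987).

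**Figure D4:**
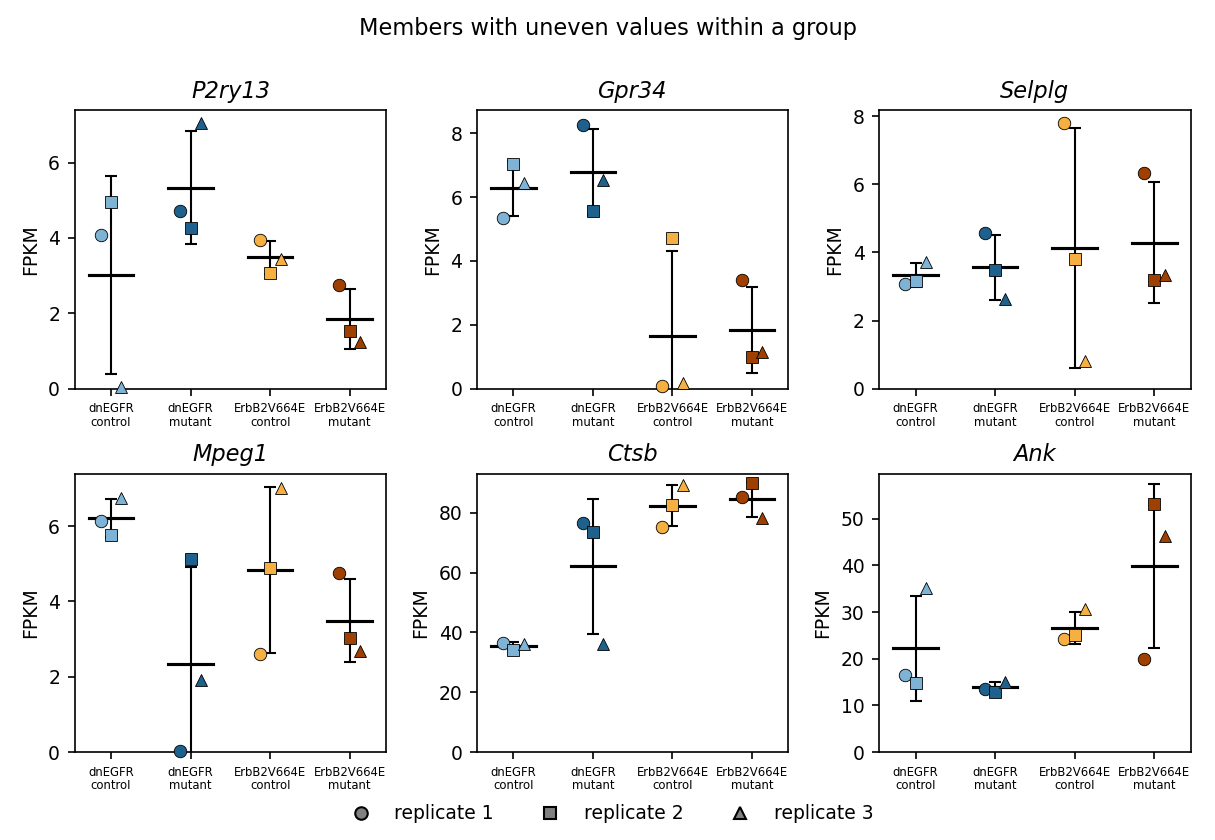
FPKM of 6 members whose values differ widely between libraries of a group (P2ry13, Gpr34, Selplg, Mpeg1, Ctsb, Ank), with symbols for replicates, a bar at the group mean and whiskers of 1 SD (n = 3). Mpeg1 stands near 0 in dnEGFR mutant 1 only, P2ry13 near 0 in dnEGFR control 3 only, and Gpr34 near 0 in ErbB2V664E controls 1 and 3.

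Single libraries near 0 beside replicates at several FPKM set some of these differences. P2ry13 read 4.07, 4.95 and 0.0403 FPKM in dnEGFR controls and 4.70, 4.27 and 7.04 in mutants, with control 3 far below the other libraries, and its difference was 0.98 ± 0.55 with that library and 0.18 without it. Ank read 16.6, 14.9 and 35.2 FPKM in dnEGFR controls and 13.6, 12.9 and 15.1 in mutants. In all, 5 tested members varied over 3-fold within a dnEGFR group (P2ry13, Olfml3, Mpeg1, Spp1 and Ccl6) and 5 within an ErbB2V664E group (P2ry12, Fcrls, Gpr34, Selplg and Itgam). Leaving them out put the homeostatic median at 0.08 in the dnEGFR line and at -0.62 in the ErbB2V664E line.

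The effects of the 2 lines were compared by the ErbB2V664E difference less the dnEGFR difference. This was negative for 25 of 32 members, with medians of -0.66 for the homeostatic, -0.45 for the shared and -0.23 for the disease-associated genes. Limma called 0 members and 16 loci in all (0.116%), or 4 with the replicate block, and the lowest adjusted p of a member was 0.431, for Fcrls at -1.58 ± 0.52. At an unadjusted p under 0.05, 9 members were lower and 0 higher, beside 4.77% of all loci lower and 4.25% higher. These 9 were 5 homeostatic and 4 shared genes. Without ErbB2V664E mutant 1 Fcrls was called, at -2.11 ± 0.23 (adjusted p = 0.00679), among 42 loci (0.304%). Without dnEGFR mutant 3 Ctsb was called, at -1.02 ± 0.14 (limma adjusted p = 0.0265), among 28 loci (0.203%). Both libraries were picked out after their values in these genes were seen. The controls of the 2 lines already differed in level for some members, with Laptm5 at 4.11 ± 0.25 FPKM (SD, n = 3) in dnEGFR controls and 11.1 ± 0.65 in ErbB2V664E controls, and age, treatment and transgene cannot be told apart there.

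**Figure D5:**
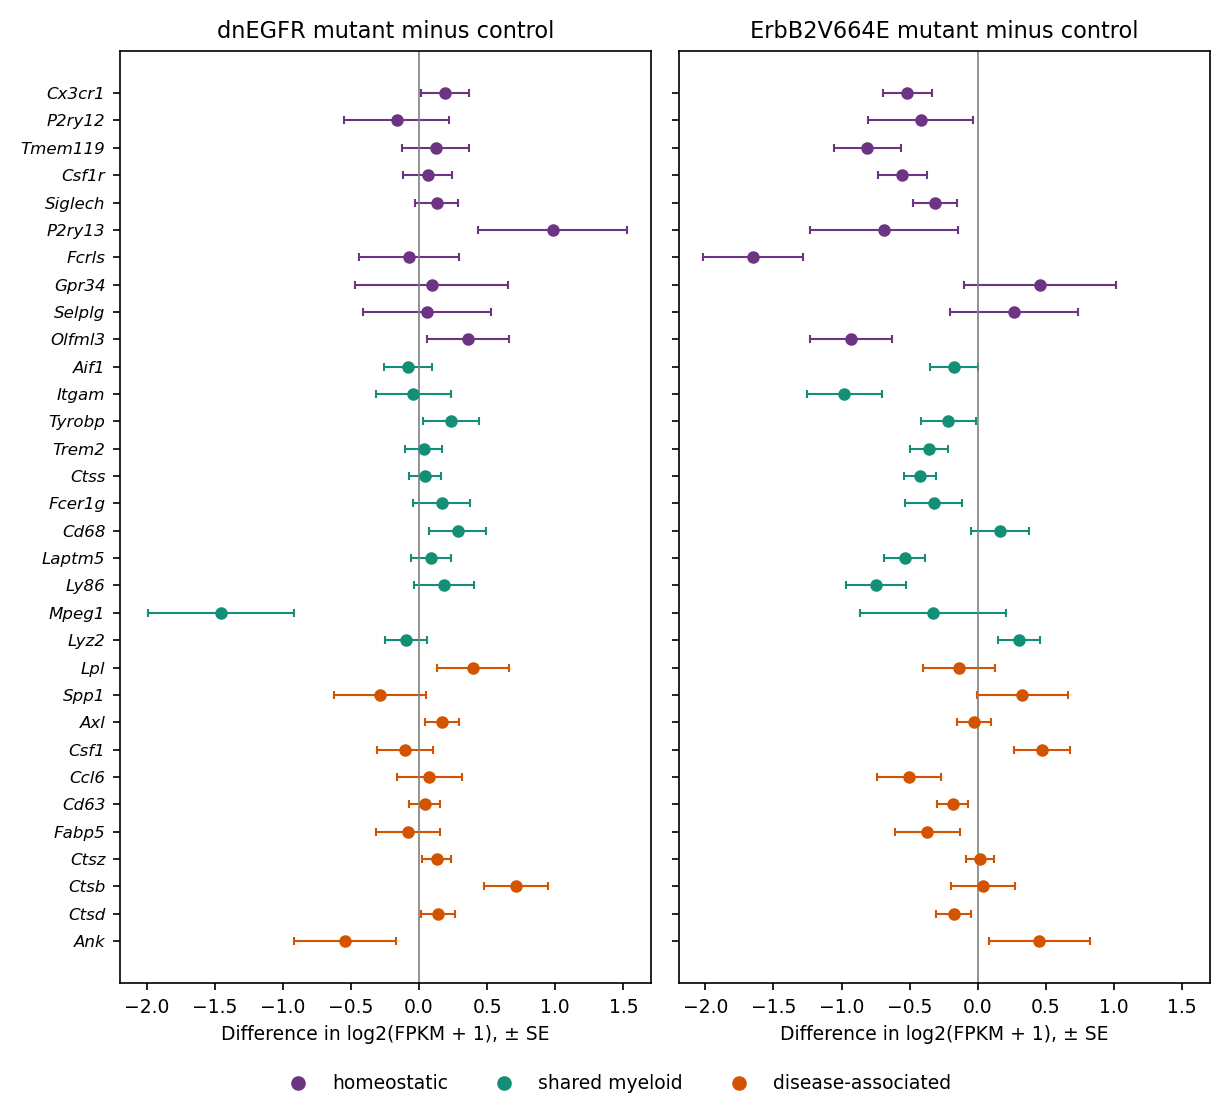
Difference between mutant and control means in log2(FPKM + 1) with its standard error for the 32 tested members, in the dnEGFR line (left) and the ErbB2V664E line (right), coloured by group. In the ErbB2V664E line 8 of 10 homeostatic and 9 of 11 shared genes lie below 0, and no member in either panel passed the adjusted threshold.

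Genes around these members in the same pathways were taken from a fixed list of 24, of which 14 could be tested, and limma called 0 in either line. In the ErbB2V664E line 11 were negative and 3 positive, with a median of -0.16. Plcg2, Sall1 and Cx3cl1, named after their values were seen, were among those whose mutants all lay below the controls. Plcg2, a phospholipase downstream of Trem2, and Sall1, a transcription factor that maintains microglial identity, differed by -0.27 ± 0.12 and -0.29 ± 0.18. Cx3cl1, the neuronal ligand of Cx3cr1, was the reverse of the other line, with -0.26 ± 0.13 here and 0.33 ± 0.13 in dnEGFR mutants. Apoe, the lipid carrier made mainly by astrocytes and also by activated microglia, was higher in all 3 ErbB2V664E mutants, at 276 ± 34.4 FPKM (SD, n = 3) against 195 ± 10.4 in controls (difference 0.49 ± 0.13, limma adjusted p = 0.161).

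Smad3, a transducer of transforming growth factor beta, which microglia need for their resting state and which many other cells express, read higher in the mutants of both lines. It averaged 3.55 ± 0.36 FPKM (SD, n = 3) in dnEGFR controls and 9.20 ± 0.75 in dnEGFR mutants, with no overlap (difference 1.17 ± 0.21, limma adjusted p = 0.146). Fitted on the 6 libraries of that line alone the adjusted p was 0.0318, in a fit that called 22 loci. In the ErbB2V664E line it averaged 6.42 ± 2.79 and 11.1 ± 1.38 FPKM, with overlap (difference 0.76 ± 0.21, limma adjusted p = 0.188). Controls 1 and 3 read 4.34 and 5.33 FPKM, while control 2, at 9.59, lay within the mutants' range of 9.55 to 12.2. Without control 2, the library that made the groups overlap, the limma adjusted p was 0.0172, in a fit that called 34 loci. That library was picked out by its Smad3 value, so this p is no separate support for a difference. The genes of the list that were too low to test included Tgfb1, Syk, Spi1, Irf8, Runx1, C3ar1, Vav1 and Ptprc.

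Within groups, several members varied from mouse to mouse together with the other homeostatic genes. After group means were subtracted, the Pearson correlation of a gene with the mean of the homeostatic genes, itself left out, was 0.95 for Itgam, 0.91 for Laptm5, 0.86 for Fcrls, 0.83 for Cx3cr1 and 0.80 for P2ry12 over the 12 libraries. It was 0.20 for P2ry13, 0.26 for Gpr34, 0.14 for Selplg and 0.38 for Olfml3, the homeostatic genes with single libraries near 0 or uneven controls. Among the shared genes Aif1 gave 0.12, Mpeg1 -0.12, Lyz2 -0.18 and Cd68 -0.19. The disease-associated genes ran from -0.75 for Ank to 0.51 for Ctsz. These points share library depth and the cell makeup of the piece, and the ErbB2V664E mutants weigh heavily in them. Among 9347 other loci with a mean of at least 2 FPKM, the 10 most like the homeostatic mean were Rcn1, Phtf2, Dlg4, Tmbim6, Taf4, Fam84b, Scaf4, Sdpr, 6030458C11Rik and Dtymk, with correlations from 0.88 to 0.91.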

How the data were processed

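RNA of subcortical white matter was sequenced in paired ends after poly(A) selection, per the labels' protocols, which name no step that keeps the strand. The deposited values are FPKM per locus, which the authors computed with StringTie, with HISAT also named in the submitters' processing notes. The versions, options, genome build and annotation were not given in the sources used here. No fragment counts were used, and depth was estimated from the steps of low FPKM values in 14221 loci with 1 transcript (GENCODE lengths, tolerance 2%).

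FPKM as deposited was taken to log2(FPKM + 1), which understates differences of low genes. Loci of at least 1 FPKM in 3 or more libraries (13803) were fitted with limma 3.58.1 in R 4.3.3, with 1 mean per group over 12 libraries, a trended empirical Bayes prior, two-sided tests and Benjamini-Hochberg adjustment (threshold 0.05, 8 residual and 2.03 prior degrees of freedom). The script was tested on simulated data. P-values reflect the spread between mice.

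Descriptions name a littermate control for each mutant, which pairs the libraries by litter. Deviations from group means within pairs correlated at 0.0162, 0.0089, 0.0326, -0.0036, 0.0099 and -0.0253. With litter as a replicate block, limma called 0 members, and 3, 7 and 4 loci for the dnEGFR line, the ErbB2V664E line and their difference, against 13, 38 and 16 without it.

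Of the 44 members, 38 stood at 1 locus, 6 at several and 5 at a locus joined with another symbol. The members and lists were chosen with earlier results of these data known, so no p is given over a list. Values are printed library by library for Cx3cr1, P2ry12, Tmem119, Csf1r, Cst7, Lpl, Itgax, Clec7a, Aif1, Trem2 and Tyrobp and for members whose groups did not overlap, and others were added after their values were seen. Promoters are from RefSeq. Some genes of the fixed lists are counted but not reported by name here. Alternatives were the block, the pseudocount, the filter, 2 scalings, a fit per line, summed loci and each library left out.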

Additional observations from a re-analysis of the deposited data

How the results depend on the processing

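No member was called in either line or for their difference under a pseudocount of 0.1, no filter on low values, either scaling, summed loci or the replicate block, which called 3, 7 and 4 loci in the dnEGFR line, the ErbB2V664E line and their difference. A fit on the libraries of the line, run for the lines and not for their difference, called 0 members and 22 and 23 loci. Leaving out 1 library gave 0 to 1 called members in the dnEGFR line, 0 to 6 in the ErbB2V664E line and 0 to 1 for the difference, with 17 to 36, 16 to 262 and 15 to 42 loci. The 6 came without ErbB2V664E mutant 1, and the count of 10 lower members became 13 without that library. Giving results without mutant 1 was chosen after seeing the data, as was leaving out uneven members. The ErbB2V664E disease-associated median ranged from -0.12 to 0.0068 with 1 library left out. The dnEGFR homeostatic median was -0.0032 without mutant 1. No scaling moved the median of all loci by over 0.1.

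Signs that turned were of small differences. In the dnEGFR line, leaving out 1 library gave -0.47 to 0.15 for P2ry12, -0.070 to 0.21 for Csf1r, -0.27 to 0.057 for Aif1 and -0.039 to 0.13 for Trem2. In the ErbB2V664E line it gave -0.35 to 0.80 for Selplg, -0.0033 to 0.30 for Cd68, -0.32 to 0.049 for Lpl and -0.026 to 0.095 for Ctsb, which was -0.0045 with the same total in every library. The causes were not tested. Cst7 rests on an estimated 3.0 fragments or fewer a library, and Itgax and Clec7a stayed at or below 0.234 FPKM, which limits what can be said of them.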
